A study of Arabidopsis thaliana with 9 samples.

Results

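The KANADI, YABBY and ARF genes described here are 9 transcription factor genes that mark or specify the lower (abaxial) side of Arabidopsis thaliana leaves. They are KAN1 (AT5G16560), KAN2 (AT1G32240) and KAN3 (AT4G17695) of the KANADI family, AFO (AT2G45190, also known as FILAMENTOUS FLOWER), YAB2 (AT1G08465), YAB3 (AT4G00180) and YAB5 (AT2G26580) of the YABBY family, and the auxin response factors ETT (AT2G33860, also known as ARF3) and ARF4 (AT5G60450). They were chosen by gene identifier and make up 9 of the 33602 gene models in the count files. All 9 passed the filter on low counts, as did 18291 gene models in all, so no member was lost to it.

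A flat leaf blade grows out where cells of upper and lower identity meet. KANADI proteins, DNA-binding factors of the GARP class that act mostly as repressors, and the HD-ZIP III factors of the upper side restrict each other, and ETT and ARF4 work with the KANADI proteins. YABBY proteins, which carry a zinc finger and an HMG-like domain, promote blade growth and keep meristem genes off in young leaves. ETT and ARF4 transcripts are cut by tasiR-ARF, a small RNA made from the TAS3 transcript, which miR390 and AGO7 cleave first and RDR6, SGS3 and DCL4 then turn into double-stranded RNA and short pieces.

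RNA came from the above-ground parts of plants aged 21 days in the Col0 ecotype, grown untreated on soil at 21 °C and 65% humidity in short days of 8 h light and 16 h dark. The series asks how CUC transcription factors, known from organ boundaries and leaf teeth, work while leaves develop. The 3 genotypes were wild type (WT), cuc2-3 and CUC2gm-4, with 3 libraries each, named here by genotype and replicate number. Nothing in the labels tells if replicates were separate plants, so a p-value reflects only how these samples spread, which may be technical.

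Total counts ran from 17361433 to 27734410 per library, and 3 counts, taken as the floor of detection, came to between 0.108 and 0.173 CPM, the unit of counts scaled to library size. The CUC2 mean was 2.03 ± 1.1 normalised CPM for WT, 1.06 ± 0.600 for cuc2-3 and 35.8 ± 6.66 for the libraries labelled CUC2gm-4 (SD, n = 3), while the series describes both lines as knock-outs. The CUC2 level thus goes against that description for the libraries labelled CUC2gm-4, and every direction given for them rests on the label. The cuc2-3 libraries held 38, 11 and 23 CUC2 counts, all above the floor, and overlapped WT with its 13, 53 and 55, so the CUC2 level does not set cuc2-3 apart from WT either. That overlap came from WT 1, at 0.810 normalised CPM. WT 2 and 3, at 2.95 and 2.32, lay above the cuc2-3 libraries at 1.74, 0.620 and 0.816. Green tissue markers summed to between 25816 and 63592 CPM and floral ones to at most 0.710 CPM, so defining markers of the labelled organ were present. The meristem genes STM and KNAT1 were at 1.93 and 1.5 CPM in WT 1, against 13.0 to 31.5 and 8.16 to 15.2 in the other 8 libraries.

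The sequences shown here are the places in ETT and ARF4 that match the small RNA. The best match was sought between the TAS3 transcript, in stretches of 21 bases, and the ETT and ARF4 transcripts in the RefSeq TAIR10.1 reference. Only Watson-Crick pairs were counted. The TAS3 stretch with the most pairs lies at chr3:5862205-5862225 on the plus strand, next to a near copy at chr3:5862184-5862204. The ETT sites lie in its coding sequence on the minus strand, at chr2:14325941-14325961 and chr2:14325821-14325841. The ARF4 sites lie in its coding sequence on the minus strand, at chr5:24309717-24309737 and chr5:24309507-24309527. In the TAS3 repeat 2 line, capitals mark bases that pair with all 4 sites, and in the TAS3 repeat 1 line they mark bases equal to repeat 2. In the site lines capitals mark bases that pair with repeat 2. All are written 5′ to 3′.
TAS3 repeat 2: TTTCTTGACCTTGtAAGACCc
TAS3 repeat 1: TTTCTTGACCTTGTAAGgCCt
ETT site 1: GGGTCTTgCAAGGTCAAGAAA
ETT site 2: aGGTCTTgCAAGGTCAAGAAA
ARF4 site 1: aGGTCTTgCAAGGTCAAGAAA
ARF4 site 2: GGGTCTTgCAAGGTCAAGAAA

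ETT and ARF4 each held 2 such sites, with 20 and 19 of 21 bases paired. The next best place paired 13 bases in ETT and 12 in ARF4, and the best place in each of the 3 KANADI and 4 YABBY transcripts paired 12 to 14. The TAS3 stretch was chosen for its pairs with ETT and ARF4, so fewer pairs in the KANADI and YABBY transcripts follow in part from that choice. No TAS3 stretch was sought for those transcripts. ARF2, another auxin response factor, held 1 site with 19 paired bases at chr5:24913262-24913282 on the plus strand. A match is a description of the letters and not a measure of cleavage, and the ends of the mature small RNA were not used. The longest stretch that ETT and ARF4 transcripts share letter for letter has 25 bases and holds the site, which is in capitals here, at chr2:14325938-14325962 in ETT.
Stretch shared by ETT and ARF4: aGGGTCTTGCAAGGTCAAGAAAttt

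The longest shared stretches of the other pairs within a family had 11 to 20 bases, the longest of them between KAN1 and KAN2. Reads with equally good placements were removed by the authors, so reads lying wholly inside such a stretch are not counted for either gene. KAN1 is the sole member that overlaps other genes. It shares 435 exonic bp with AT5G02555, a long non-coding RNA on the opposite strand, and 25 bp with AT5G16550. Whether the counting used strand was not stated by the sources at hand, so reads of KAN1 and of those genes may not be separated.

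The 9 genes spanned a wide range of levels, with 2 YABBY genes at the top and the KANADI genes at the bottom. Per length of gene model, YAB3 was the highest with a mean of 47.2 normalised CPM per kb over the 9 libraries, followed by AFO with 42.0. ETT had 19.9, YAB5 19.2, YAB2 14.7 and ARF4 12.9 CPM per kb. KAN3 had 5.61, KAN1 3.69 and KAN2 2.18 CPM per kb. Against all genes tested, 85.5% lay below YAB3 and 12.9% below KAN2 on this scale.

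Most neighbours in that order were not separated. Across the 9 libraries the ranges did not overlap between AFO and ETT, nor between ARF4 and KAN3. The ratio taken within each library averaged 2.15 for AFO to ETT and 2.39 for ARF4 to KAN3. The other 6 neighbouring pairs overlapped: ETT was above YAB5 in 4 of the 9 libraries, and YAB3 was above AFO in 7 of them. KAN3 was above KAN1 in all 9 libraries when compared within a library, although their ranges overlapped.

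**Figure D1:**
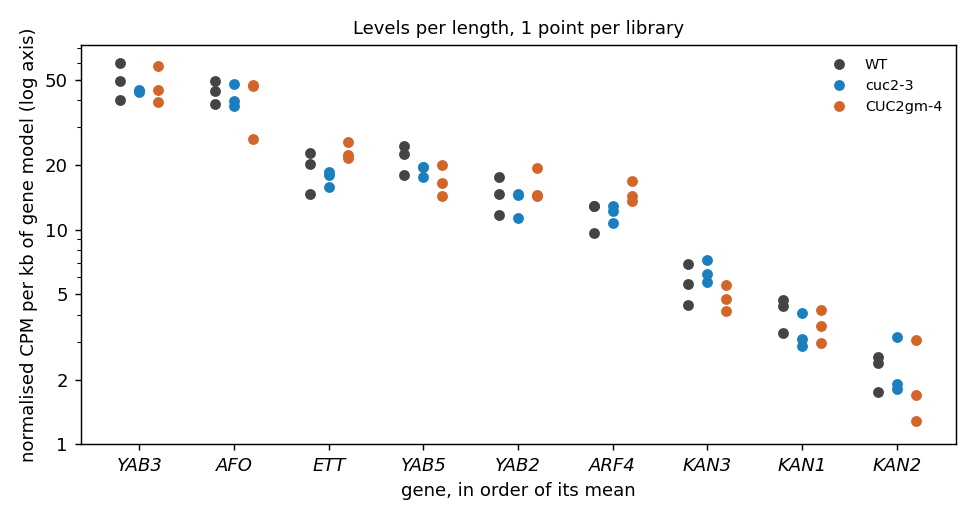
Levels of the 9 genes in normalised CPM per kb of gene model on a log axis, with a point for each of the 9 libraries and genes in order of their mean. The gaps between AFO and ETT and between ARF4 and KAN3 are the places in the order where no library of the upper gene falls among those of the lower gene.

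The highest library was 1.53 to 1.85 times the lowest for 8 of the 9 genes, and their coefficients of variation over the 9 libraries were 15.5% to 18.6%. KAN2, the least abundant, ranged 2.46-fold with a coefficient of variation of 29.8%. Counting alone would give 12.0% for KAN2, with 51 to 124 counts per library, and 2.84% for YAB3, with 997 to 1840 counts.

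**Figure D2:**
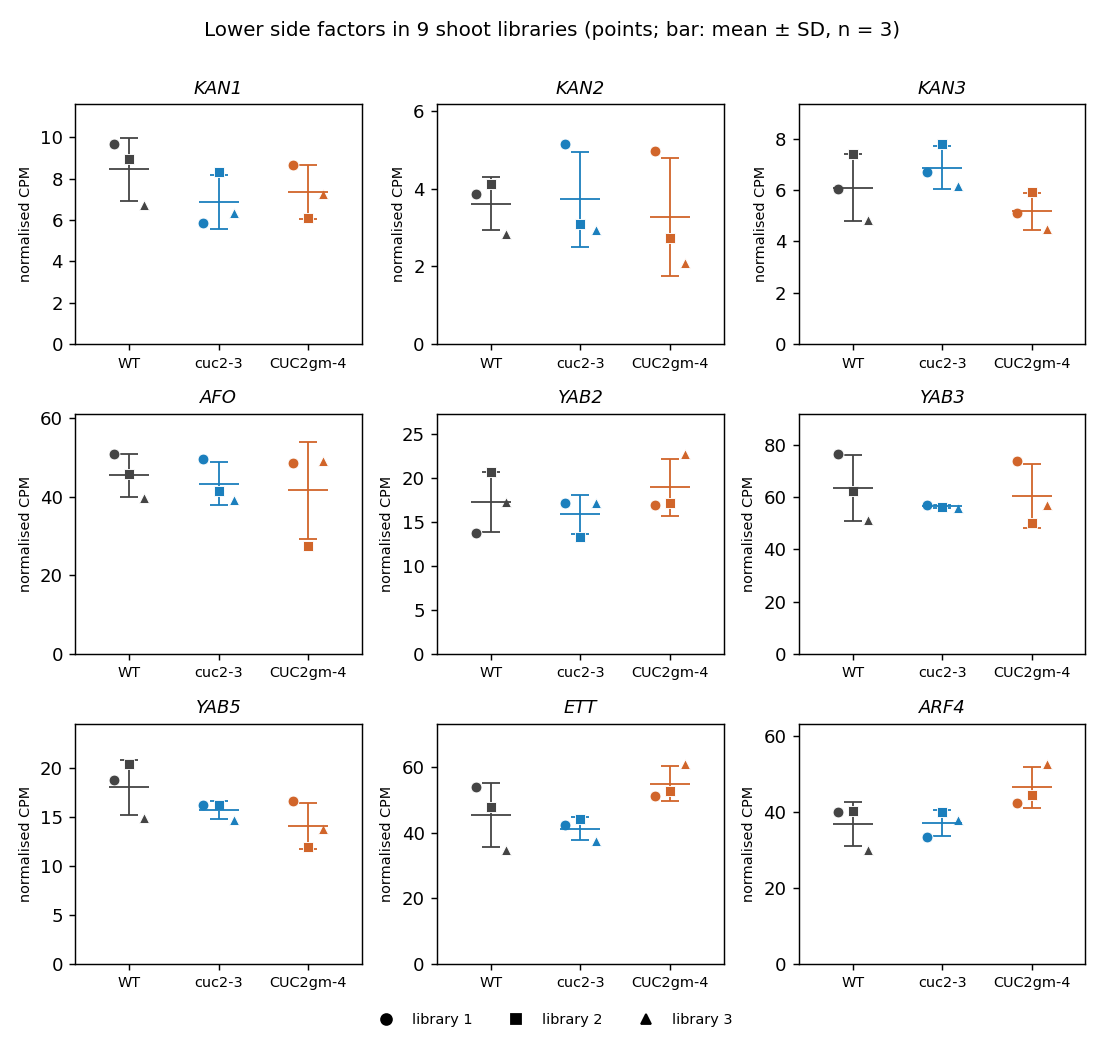
Normalised CPM of each of the 9 genes in every library, with a point per library, labelled by genotype, and the mean ± SD of the 3 libraries of a genotype; each panel has its own axis from 0. The points of ARF4 in CUC2gm-4 (42.3 to 52.7) lie above those of both other genotypes, a separation from WT that ends with the length trend removed, and those of ETT in CUC2gm-4 (51.0 to 60.9) lie above those of cuc2-3.

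None of the 9 genes differed between genotypes at the threshold used, an adjusted p below 0.05. By edgeR's quasi-likelihood test, adjusted after Benjamini-Hochberg over the 18291 genes, 0 of 9 passed for cuc2-3 against WT, where 0.0219% of all genes tested passed. For the libraries labelled CUC2gm-4, 0 of 9 passed against WT and 0 of 9 against cuc2-3, with 0.0164% of all genes in each. DESeq2 and limma-voom also called 0 of 9 in each comparison. Of all genes DESeq2 called more than edgeR in each comparison, with the counts given in the last section. At an unadjusted p below 0.05 edgeR gave 0, 0 and 1 members, beside 1.96%, 6.48% and 3.73% of all genes. With the replicate number as a block 0 of 9 passed in each comparison, where 0.0219%, 0.191% and 0.0383% of all genes did. In that fit ETT and KAN3 had unadjusted p of 0.0315 and 0.0454 for CUC2gm-4 against cuc2-3, by edgeR's quasi-likelihood test. In RNA from whole shoots, fewer cells of a type and less RNA per cell cannot be told apart, and this holds for every level given here.

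The median log2 fold change of the 9 genes was -0.12 for cuc2-3 against WT, -0.12 for CUC2gm-4 against WT and 0.096 for CUC2gm-4 against cuc2-3. Over all genes tested the medians were -0.0077, -0.0025 and 0.00044. Values above 0 were found for 3, 3 and 5 of the 9 genes and for 48.3%, 49.6% and 50.1% of all genes. The comparisons share libraries, so these medians are not independent of each other.

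The 3 libraries of one genotype lay wholly above or below those of the other for 0 of 9 genes in cuc2-3 against WT, where 5.52% of all genes did so (2.87% higher, 2.65% lower). For CUC2gm-4 against WT it was 1 of 9, ARF4, beside 11.6% of all genes (5.87% higher, 5.74% lower). For CUC2gm-4 against cuc2-3 it was 3 of 9, with ETT and ARF4 higher and KAN3 lower, beside 10% of all genes (4.82% higher, 5.19% lower).

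**Figure D3:**
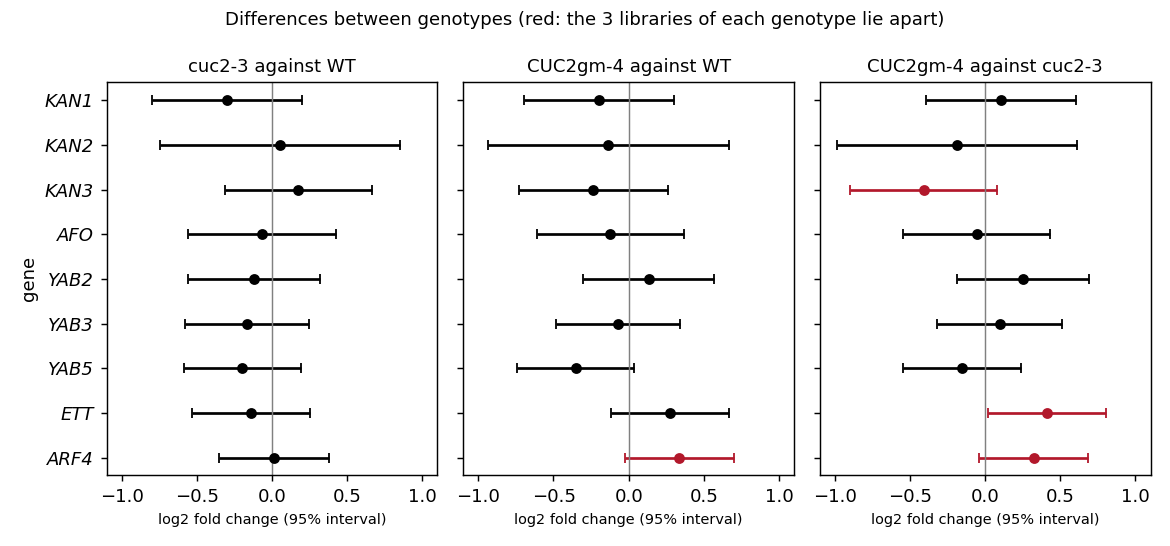
Log2 fold change of each of the 9 genes in the 3 comparisons between genotypes, with 95% intervals from the model fitted to all 9 libraries; red marks genes whose 3 libraries of each genotype lie apart, which for ARF4 against WT ends with the length trend removed. The intervals cross 0 except that of ETT in CUC2gm-4 against cuc2-3 (0.02 to 0.81), and the widest are those of KAN2.

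In both comparisons with CUC2gm-4 the member with the smallest p was an ARF gene. ETT, which lacks the domain through which other ARF proteins bind Aux/IAA repressors, lies on chromosome 2 (14325206 to 14328978, minus strand, TAIR10.1, 10 exons). ETT stood at 53.9, 47.7 and 34.7 normalised CPM in WT 1 to 3, at 42.4, 44.0 and 37.3 in the cuc2-3 libraries, and at 51.0, 52.7 and 60.9 in those labelled CUC2gm-4. The 3 CUC2gm-4 libraries lay above the 3 cuc2-3 libraries, while WT 1 lay among those of CUC2gm-4 and WT 3 was the lowest of all 9.

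The means of ETT were 45.4 ± 9.79 in WT, 41.2 ± 3.52 in cuc2-3 and 54.9 ± 5.28 in CUC2gm-4 (normalised CPM, SD, n = 3). Against cuc2-3 the log2 fold change of CUC2gm-4 was 0.41 (SE 0.18, 95% interval 0.02 to 0.81), a 1.33-fold difference. Its p in edgeR's quasi-likelihood test was 0.0409 before and 0.999943 after Benjamini-Hochberg adjustment. ETT was higher in 3 of 3 same-numbered pairs of libraries, which follows from the libraries lying apart. With the replicate number as a block the adjusted p in the same test was 0.646368. Against WT the log2 fold change was 0.27 (SE 0.18, 95% interval -0.12 to 0.67), and 0.11 without WT 3. The cuc2-3 libraries differed from WT by -0.14 (SE 0.18, 95% interval -0.53 to 0.25).

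ARF4, which acts redundantly with ETT on the lower side, lies on chromosome 5 (24308255 to 24312784, minus strand, TAIR10.1, 12 exons). ARF4 stood at 40.1, 40.3 and 30.1 normalised CPM in WT 1 to 3, at 33.4, 40.1 and 38.0 in the cuc2-3 libraries, and at 42.3, 44.5 and 52.7 in those labelled CUC2gm-4. All 3 CUC2gm-4 libraries lay above all 6 others, and WT 3 was again the lowest. With the trend of fold changes on gene length removed, they no longer lay apart from WT.

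The means of ARF4 were 36.8 ± 5.84 in WT, 37.2 ± 3.45 in cuc2-3 and 46.5 ± 5.48 in CUC2gm-4 (normalised CPM, SD, n = 3). The log2 fold change of CUC2gm-4 was 0.34 against WT (SE 0.17, 95% interval -0.03 to 0.70) and 0.32 against cuc2-3 (SE 0.16, 95% interval -0.04 to 0.69). Their adjusted p by edgeR's quasi-likelihood test, adjusted after Benjamini-Hochberg, were 0.795 and 0.999943, so neither passed. Without WT 3 the value against WT was 0.20. The cuc2-3 libraries differed from WT by 0.015 (log2, SE 0.17, 95% interval -0.35 to 0.38).

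Fold changes against WT moved with gene length over all genes tested, and ARF4 has the longest model of the 9, at 3114 bp. The 1628 genes longer than 3 kb had a median log2 fold change of 0.24 for CUC2gm-4 against WT, and the 4011 genes of up to 1 kb had -0.11. For cuc2-3 against WT the same medians were 0.19 and -0.10, and for CUC2gm-4 against cuc2-3 they were 0.04 and -0.02. WT 3 deviated by -0.40 from the mean of the libraries in the longest genes and by 0.26 in the shortest. With the trend on length removed, a choice made after seeing the data, ARF4 was at 0.18 for CUC2gm-4 against WT and at 0.30 against cuc2-3, and ETT at 0.20 and 0.41. On that scale ARF4 in CUC2gm-4 1 was at 5.22 log2 CPM, below 5.28 in WT 1 and 5.41 in WT 2, so ARF4 in CUC2gm-4 overlapped WT. ETT, ARF4 and KAN3 still lay apart between CUC2gm-4 and cuc2-3 in the same directions, as YAB2 then did toward higher levels, and ARF4 in cuc2-3 lay below WT. The share of all genes that lay apart on that scale was not counted, so these separations have no background to be set against.

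**Figure D4:**
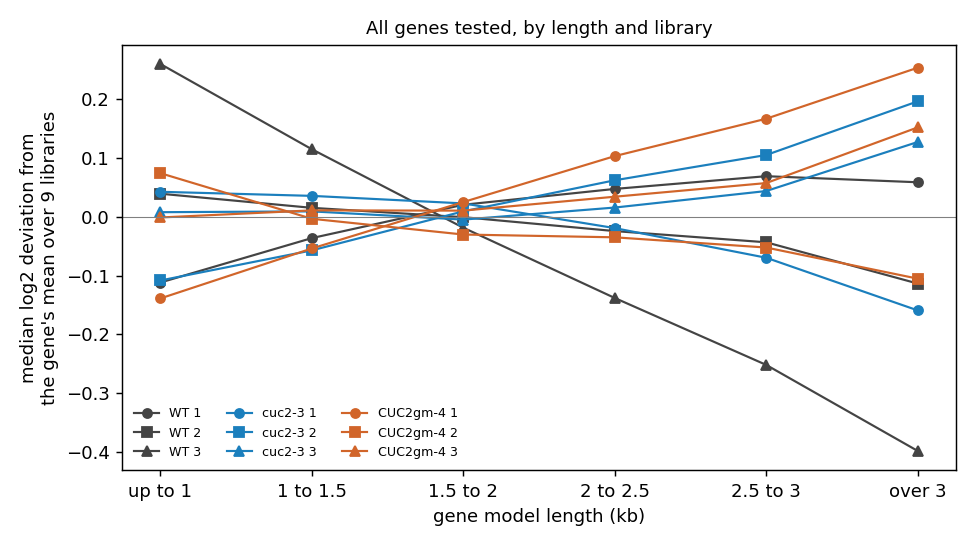
Median deviation of each library, on the log2 scale, from the mean of all libraries, for tested genes in 6 classes of gene model length in kb; each line is a library. WT 3 runs from 0.26 in genes of up to 1 kb to -0.40 in genes over 3 kb, the class that holds ARF4.

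ETT and ARF4 had the highest correlation of the 36 pairs of members. Over the 9 libraries their log2 levels gave Pearson's r of 0.87 (exact permutation p = 0.00219, adjusted over 36 pairs of members 0.0787) and Spearman's rho of 0.82 (exact permutation p = 0.0108, adjusted 0.0969). Without the 2 libraries farthest from the median of ETT r was 0.88, and with the length trend removed 0.84. None of the 36 pairs passed after adjustment. The next highest r was 0.79 between KAN1 and YAB3 (exact permutation p = 0.00920, adjusted 0.166). Taken as deviations from the mean of each replicate number and permuted within numbers, a choice made after seeing the data, ETT and ARF4 gave r of 0.94 (exact permutation p = 0.0139, adjusted 0.333) and rho of 0.88 (exact permutation p = 0.0232, adjusted 0.417). KAN1 and YAB3 gave r of 0.94 there (exact permutation p = 0.0185, adjusted 0.333). Again 0 of 36 pairs passed, and the 216 permutations allow no p below 0.00463. Differences between genotypes remain in both kinds of values, and ETT and ARF4 both had their highest mean in CUC2gm-4. Correlation within genotypes was not computed. Per length, the ratio of ARF4 to ETT lay between 0.565 and 0.776 with a median of 0.643.

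The KANADI genes were the lowest of the 9. KAN1, the founding member, lies on chromosome 5 (5406863 to 5411766, minus strand, TAIR10.1). KAN1 stood at 9.66, 8.97 and 6.72 normalised CPM in WT 1 to 3, at 5.87, 8.34 and 6.35 in the cuc2-3 libraries, and at 8.67, 6.07 and 7.28 in those labelled CUC2gm-4. The genotypes overlapped. Each cuc2-3 library was below the WT library of the same number, with a log2 fold change of -0.30 (SE 0.23, 95% interval -0.80 to 0.20). For CUC2gm-4 it was -0.20 against WT (SE 0.23) and 0.10 against cuc2-3 (SE 0.23).

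KAN3, the KANADI gene with the most RNA per length, lies on chromosome 4 (9847933 to 9850927, minus strand, TAIR10.1). KAN3 stood at 6.04, 7.41 and 4.82 normalised CPM in WT 1 to 3, at 6.70, 7.78 and 6.14 in the cuc2-3 libraries, and at 5.10, 5.92 and 4.50 in those labelled CUC2gm-4. The 3 CUC2gm-4 libraries lay below the 3 cuc2-3 libraries, the reverse of ETT and ARF4, and WT overlapped both. The log2 fold change was -0.41 (SE 0.22, 95% interval -0.90 to 0.08), with an adjusted p of 0.999943 by edgeR's quasi-likelihood test, adjusted after Benjamini-Hochberg. With the replicate number as a block the SE was 0.18, and p in that test was 0.0454 before and 0.667 after adjustment. In each of the 3 genotypes the library numbered 2 was the highest for KAN3. Against WT the value was 0.17 (SE 0.22) for cuc2-3 and -0.23 (SE 0.22) for CUC2gm-4.

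KAN2, which acts redundantly with KAN1, lies on chromosome 1 (11625616 to 11630745, minus strand, TAIR10.1). KAN2 stood at 3.86, 4.12 and 2.83 normalised CPM in WT 1 to 3, at 5.14, 3.10 and 2.95 in the cuc2-3 libraries, and at 4.98, 2.74 and 2.09 in those labelled CUC2gm-4. The genotypes overlapped, and the library numbered 1 was the highest in cuc2-3 and in CUC2gm-4. The 95% intervals of the log2 fold change were the widest of the members: -0.75 to 0.85 for cuc2-3 against WT, and for CUC2gm-4 -0.94 to 0.67 against WT and -0.98 to 0.61 against cuc2-3. Differences within those bounds are not excluded for KAN2, nor for each other member within its own interval. With the replicate number as a block its SE was 0.26 in each comparison, against 0.36 without the block.

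The YABBY genes had the largest family sum in each library, from 106 to 160 normalised CPM, where all 9 genes summed to 202 to 273. AFO and YAB3 act redundantly in blade growth. AFO, on chromosome 2 (18628252 to 18630779, minus strand, TAIR10.1), stood at 50.8, 45.6 and 39.7 normalised CPM in WT 1 to 3, at 49.5, 41.3 and 39.0 in the cuc2-3 libraries, and at 48.6, 27.4 and 48.9 in those labelled CUC2gm-4. CUC2gm-4 2 was the lowest of all 9 libraries, and the genotypes overlapped. AFO differed by -0.068 (log2, SE 0.22) in cuc2-3 against WT. In CUC2gm-4 it differed by -0.12 (SE 0.22) from WT and by -0.056 (SE 0.22) from cuc2-3. Without CUC2gm-4 2 the last 2 of these were 0.11 and 0.17. YAB3 and YAB5 were also at their lowest in that library.

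YAB3, on chromosome 4 (72545 to 75576, minus strand, TAIR10.1), stood at 76.3, 62.3 and 51.3 normalised CPM in WT 1 to 3, at 57.0, 56.2 and 55.9 in the cuc2-3 libraries, and at 73.8, 50.02 and 56.8 in those labelled CUC2gm-4. The library numbered 1 was the highest in each genotype, and the genotypes overlapped. The SD in cuc2-3, 0.612 around a mean of 56.4, was far below that of 12.5 in WT and 12.3 in CUC2gm-4. It was also below the coefficient of variation of 2.84% that counting alone would give, so it is not read as a trait of cuc2-3. The log2 fold changes were -0.17 (SE 0.19), -0.071 (SE 0.19) and 0.096 (SE 0.19), in the order of comparisons used above. The ratio of AFO to YAB3 per length ran from 0.672 in CUC2gm-4 2 to 1.07 in cuc2-3 1.

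YAB2 and YAB5 are the other YABBY genes of leaves. YAB5, on chromosome 2 (11303455 to 11307010, minus strand, TAIR10.1), stood at 18.8, 20.4 and 14.9 normalised CPM in WT 1 to 3, at 16.2, 16.2 and 14.7 in the cuc2-3 libraries, and at 16.6, 11.9 and 13.7 in those labelled CUC2gm-4. It was lower in CUC2gm-4 than in WT in 3 of 3 same-numbered pairs, but CUC2gm-4 1 lay above WT 3. The log2 fold change was -0.35 (SE 0.18, 95% interval -0.74 to 0.04), with an adjusted p of 0.795 by edgeR's quasi-likelihood test, adjusted after Benjamini-Hochberg. YAB5 has the shortest model of the 9, at 831 bp, in the length class whose median was -0.11 in this comparison.

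YAB2, on chromosome 1 (2675813 to 2679824, plus strand, TAIR10.1), stood at 13.8, 20.7 and 17.2 normalised CPM in WT 1 to 3, at 17.1, 13.2 and 17.1 in the cuc2-3 libraries, and at 16.9, 17.1 and 22.7 in those labelled CUC2gm-4. The genotypes overlapped, with CUC2gm-4 3 the highest and cuc2-3 2 the lowest. The log2 fold changes were -0.12 (SE 0.20), 0.13 (SE 0.20) and 0.25 (SE 0.20), in the same order. Per length, the ratio of YAB2 to YAB5 ran from 0.520 in WT 1 to 1.17 in CUC2gm-4 3, and their r over the 9 libraries was -0.16 (exact permutation p = 0.678, adjusted 0.813; rho -0.22, exact permutation p = 0.581, adjusted 0.818), and 0.058 within replicate numbers (exact permutation p = 0.995, adjusted 0.995).

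**Figure D5:**
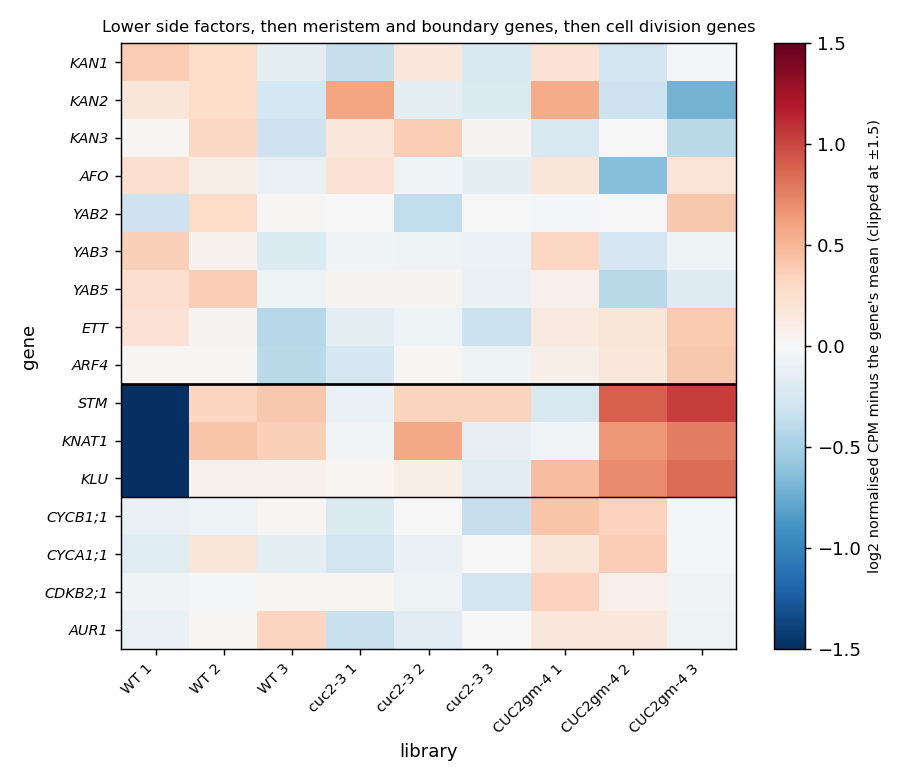
Log2 normalised CPM minus each gene's mean, in every library, for the 9 genes, then meristem and boundary genes, then cell division genes, clipped at 1.5 either way. WT 1 is low in STM, KNAT1 and KLU, while KAN1, AFO and YAB3 have their highest level of the 9 libraries there. Scaled by library totals alone, KAN1, AFO and YAB3 are not highest in WT 1.

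WT 1 stood apart in the meristem genes STM and KNAT1 and in KLU, while the 9 genes took varied places there. STM and KNAT1 are given above, and KLU, a cytochrome P450 gene that promotes organ growth, was at 4.30 normalised CPM in WT 1 against 16.6 to 33.0 in the other 8 libraries. The meristem markers CLV3 and WUS did not set WT 1 apart. They were near the floor, with 2 and 1 counts in WT 1 and at most 9 and 5 in a library. KAN1, AFO and YAB3 were the highest in WT 1 of all 9 libraries, and ETT and YAB5 came second. YAB2 was the second lowest there, at 13.8 against 20.7 and 17.2 normalised CPM in WT 2 and 3, and KAN2, KAN3 and ARF4 lay between. These places depend on the scaling, as the TMM factor was 0.873 for WT 1 and 0.955 to 1.06 for the other 8. By library totals alone none of KAN1, AFO and YAB3 was highest in WT 1. KAN1 was then at 8.43 CPM there against 9.27 in WT 2. AFO was at 44.3 against 50.9 in CUC2gm-4 3, and YAB3 at 66.6 against 75.3 in CUC2gm-4 1. Without WT 1 the log2 fold change of ETT for CUC2gm-4 against WT was 0.40 and that of ARF4 0.39, and their adjusted p by edgeR's quasi-likelihood test was 0.680 and 0.681. Dividing cell markers summed to 277 to 324 normalised CPM in WT, 266 to 275 in cuc2-3 and 256 to 371 in CUC2gm-4. The cuc2-3 libraries thus lay below those of WT, and CUC2gm-4 overlapped both. Root markers, nearly all of it PYK10, summed to 126 to 177 in WT, 130 to 183 in cuc2-3 and 103 to 116 in CUC2gm-4, which thus lay below both. The root hair and root epidermis markers EXPA7 and IRT1 had at most 1 and 3 counts in a library. Green tissue markers summed to 32287 to 63592 in WT, 36279 to 46915 in cuc2-3 and 25816 to 36278 in CUC2gm-4. Those of CUC2gm-4 thus lay below cuc2-3, though by about 1 CPM at the nearest libraries, and overlapped WT. LHCB3, a light-harvesting gene among them, was at 2915 to 3751 in CUC2gm-4, below 4012 to 4491 in WT and 4216 to 4933 in cuc2-3. ETT, ARF4 and KAN3 lay apart in the same comparison with cuc2-3. The part of the meristem, dividing cell, green tissue and root markers in the levels of the 9 genes was not tested.

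Genes around the 9 were grouped in lists that cover the small RNA pathway, the co-repressors that YABBY and other factors recruit, the upper side, the margin where the sides meet, and floral relatives. Of the 39 genes in the lists 31 were tested, and 0 passed in any comparison by edgeR's quasi-likelihood test, adjusted after Benjamini-Hochberg. At an unadjusted p below 0.05, 0, 6 and 2 of the 31 were counted in the same 3 comparisons, beside the 1.96%, 6.48% and 3.73% of all genes given above. The medians of the 31 log2 fold changes were 0.12, 0.29 and 0.23. Many of these genes have models over 3 kb, the class with medians of 0.19, 0.24 and 0.04.

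In the small RNA pathway 0 of 7 tested genes passed, and their median log2 fold changes were 0.13, 0.23 and 0.23. The TAS3 precursor, source of tasiR-ARF, was at 4.80, 9.97 and 14.2 normalised CPM in WT 1 to 3, at 8.07, 7.21 and 9.16 in the cuc2-3 libraries, and at 8.39, 10.6 and 10.4 in those labelled CUC2gm-4. WT spanned both other genotypes. MIR390A had 0 counts in all libraries, which allows up to 0.173 CPM in the shallowest, and MIR390B had 1 count in WT 1. SGS3, which protects the cut precursor, had the smallest p of the list for CUC2gm-4 against WT, with a log2 fold change of 0.39 (SE 0.14) and an adjusted p of 0.756 in edgeR's quasi-likelihood test. RDR6, which copies the precursor, was at 0.37 (SE 0.18) there.

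Among the co-repressors 0 of 10 passed, with medians of 0.16, 0.26 and 0.11. SLK2, a relative of the adaptor SEUSS, and TPL, the co-repressor TOPLESS, had the smallest p for CUC2gm-4 against WT, at log2 fold changes of 0.45 (SE 0.21) and 0.40 (SE 0.21). Of the 10 genes 9 have models over 3 kb, the length class with a median of 0.24 there.

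On the upper side 0 of 11 passed, with medians of 0.0098, 0.31 and 0.27. The 5 HD-ZIP III genes ranged from 0.25 to 0.55 for CUC2gm-4 against WT and from 0.23 to 0.30 against cuc2-3, and their median for cuc2-3 against WT was 0.15. PHV, one of them, stood at 40.6, 39.9 and 32.3 normalised CPM in WT 1 to 3, at 35.7, 57.8 and 42.3 in the cuc2-3 libraries, and at 54.2, 52.3 and 58.2 in those labelled CUC2gm-4. CUC2gm-4 lay above WT, with a log2 fold change of 0.55 (SE 0.19) and an adjusted p of 0.705 in edgeR's quasi-likelihood test. ATHB-15, another, was at 0.44 (SE 0.17). The HD-ZIP III models have 2936 to 3502 bp, so they fall in the 2 longest classes, with medians of 0.11 and 0.24 in this comparison.

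At the margin between the sides 0 of 3 tested genes passed, with medians of 0.22, 0.41 and 0.49. MP, the auxin response factor MONOPTEROS, differed in CUC2gm-4 by 0.41 (log2, SE 0.17) from WT and by 0.49 (SE 0.17) from cuc2-3. WOX1, a homeobox gene of the blade margin, was at -0.62 (SE 0.25) against cuc2-3. KLU was at 1.04 (SE 0.41) against WT, a value that includes the low WT 1.

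The relatives known from flowers were near the floor. ATS, the KANADI gene of ovules, had 7 to 24 counts per library, CRC, a YABBY gene of carpels and nectaries, 1 to 10, and INO, the YABBY gene of the outer ovule integument, 0 to 3.

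For each of the 9 genes the 2 tested genes with the most similar pattern were taken by Pearson's r of log2 normalised CPM over the 9 libraries, as a description without a test. The r lay between 0.92 and 0.97. For ETT these were SLP3 (0.96) and BAM1 (0.94), and for ARF4 PAT2 (0.96) and PEPR2 (0.95). For KAN3 UMAMIT47 came first (0.96), for AFO PIP1;4 (0.96), and for YAB2 SK13 (0.96). For YAB3 AT1G21610 came first (0.97), for YAB5 AT1G63610 (0.97), for KAN2 AT5G64650 (0.96), and for KAN1 AT2G38330 (0.92). No member was among the 2 most similar genes of another member. The 9 points share the length trend and the depth of their libraries.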

How the data were processed

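Per the labels' protocols, stranded single-end libraries of selected mRNA, sized at 230 bp, were read on the Ion Torrent Proton. The deposited files hold whole-number read counts per gene model. Per the file headers the authors counted with sam2pkm and removed reads with equally good placements, and the counts of a file add up to its mapped reads less those removed. Mapping ran from 92.2% to 96.6%. The build is TAIR 10 per the submitters' processing notes, while aligner, trimming and strand setting were not given in the sources used.

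Genes reaching a CPM of 1 in 3 or more libraries were kept, with CUC2 kept whatever its counts. TMM factors and edgeR 4.0.16 in R 4.3.3 were used, with a quasi-likelihood fit of genotype to all 9 libraries and Benjamini-Hochberg adjustment over 18291 genes in each of 3 comparisons. DESeq2 1.42.0, limma-voom (limma 3.58.1), other scalings, filters, sample sets and single libraries left out were alternatives. Normalised CPM use the TMM factors, and intervals cover 95%. The scripts were tested on simulated counts. Positions and sequences are from the RefSeq TAIR10.1 reference, matched by identifier (32835 of 33602).

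The members and lists were chosen with earlier results of these data known. All members are named, with CUC2, list genes past the threshold, the 2 genes with the smallest p per list and comparison and the 2 most similar genes per member; of these the list genes with values here are a part, and TAS3, MIR390A, MIR390B, the marker genes and the floral relatives were added for their role. All genotypes carry replicate numbers 1 to 3, whose meaning the labels do not explain. Deviations from genotype means correlated with r of 0.200 to 0.599 in the 9 same-numbered pairs and -0.488 to 0.210 in the 18 others, and on this ground, over 0.1 in each pair, the numbers were taken to pair libraries. The 2 ranges overlap slightly. The main fit leaves the pairing out, so SE and intervals of log2 fold changes ignore it except where the block is named. Libraries of a genotype differed beyond counting noise (chi-square of 34.9 to 109 per gene). Floors reflect counting error only, because PCR reads lacking molecular identifiers are no independent molecules.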

Additional observations from a re-analysis of the deposited data

How the results depend on the processing

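Over 540 values of the 9 genes under the alternatives, 512 kept their direction and 28 turned it, and none crossed the threshold: 0 of 9 members and 0 list genes were called under each, and the smallest adjusted p was 0.419. With the replicate block the counts of all genes called were 35 for CUC2gm-4 against WT (main 3), 7 against cuc2-3 (main 3) and 4 for cuc2-3 against WT (main 4), with no change in the members. The other counts that moved were, for cuc2-3 against WT, 14 with DESeq2 and 1 without the libraries numbered 1; for CUC2gm-4 against WT, 81 with DESeq2, 9 with no count minimum, 6 with only the compared genotypes and 25 with the length trend removed and the block; and for CUC2gm-4 against cuc2-3, 25 with DESeq2, 9 with length and block and 1 without the libraries numbered 1. Single libraries left out gave 3 to 4, 2 to 8 and 2 to 4.

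Removing the length trend and leaving out the libraries numbered 1 were chosen after seeing the data. For cuc2-3 against WT, KAN2 turned to -0.23 without the libraries numbered 1, and ARF4 to -0.0038 with no count minimum, -0.13 with the length trend removed and -0.13 with the block as well. For CUC2gm-4 against WT, YAB3 turned to 0.028 with library totals, a scaling that moved the median of all genes to 0.083. Against cuc2-3, AFO turned to 0.022 with library totals, and KAN1 and YAB3 to -0.12 and -0.053 without the libraries numbered 1. With single libraries left out, log2 fold changes for cuc2-3 against WT ran from -0.26 to 0.20 (KAN2), -0.19 to 0.0087 (AFO), -0.27 to 0.029 (YAB2) and -0.12 to 0.085 (ARF4). For CUC2gm-4 against WT they ran from -0.58 to 0.11 (KAN2), -0.25 to 0.11 (AFO), -0.018 to 0.28 (YAB2) and -0.24 to 0.073 (YAB3). Against cuc2-3 they ran from -0.034 to 0.27 (KAN1), -0.63 to 0.12 (KAN2), -0.19 to 0.17 (AFO) and -0.077 to 0.21 (YAB3). The cause was not tested. Counting alone would give KAN2 a coefficient of variation of 12.0%, of 29.8% measured.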
